A study of Mus musculus with 10 samples.

Results

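The nuclear genes of the mitochondrial respiratory chain and ATP synthase were followed through 5 groups of mouse cells at the end of, or after, reprogramming to induced pluripotent stem cells (iPSC). Genes were taken by symbol, as all single-symbol genes whose names begin with Nduf, Uqcr, Cox4 to Cox8 or Atp5, and each was read from its probe set with the highest mean over all 10 arrays. The rule gave 80 of the 12393 genes with a single symbol, on 149 probe sets. There were 34 genes of complex I, 8 of complex III, 16 of complex IV, 17 of complex V (ATP synthase) and 5 Ndufaf genes, which encode assembly factors of complex I and not subunits. A filter kept genes above 4 in log2 units on 2 or more arrays, which were 75 of the 80 and 8593 of all 12393, and these were tested. The 5 below it were Ndufb1 of complex I and Cox4i2, Cox6a2, Cox8b and Cox8c of complex IV.

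Each group held 2 single-channel Affymetrix arrays, replicates a and b. Established iPSC had been grown either in 2i, a pair of inhibitors of MEK and GSK3, with serum, or alongside embryonic fibroblasts of the mouse (MEFs), whose removal before RNA was taken is not stated. The other groups came from secondary MEFs, which carry inducible Yamanaka factors (Oct4, Sox2, Klf4 and Myc), after 32 days of factor expression. They were a day 32 sample with no fraction named and fractions positive or negative for Sox2, in a series on sorting cells by the RNA they hold. Strain and cell line were not given in the sources used here, and whether the replicates were separate cultures is not stated, so the p-values cover the spread among these arrays, which may be technical. Although the labels call the cells of every group iPSC, only 4 of 10 pluripotency markers exceeded 4 on both arrays of the Sox2-negative fraction, against 10 of 10 in each other group. Sox2 itself, on which the fractions were named, read 9.46 and 10.45 in the positive and 4.45 and 4.13 in the negative fraction. The number of arrays limits the precision.

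Complexes I, III and IV pass electrons from NADH and ubiquinol to oxygen and pump protons across the inner mitochondrial membrane, and complex V uses the returning protons to make ATP. Most subunits are needed in fixed proportion, but some have isoforms made in muscle, testis or other tissues. Pluripotent cells are known for strong glycolysis and immature mitochondria, and reprogramming of fibroblasts is known for a shift away from oxidative phosphorylation. Nuclear genes of the chain are classic targets of the transcription factors Nrf1, GABP and Yy1.

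The 4 promoters below belong to the genes on which the isoform results turn. Atp5g2 (a gene for the c ring of ATP synthase) and Cox6b2 (the testis isoform of a complex IV subunit) were called higher in the Sox2-positive fraction than in iPSC with MEFs, Cox6b1 is the ubiquitous counterpart of Cox6b2, and Cox7a2l encodes a factor that joins complexes III and IV into supercomplexes. Each sequence is the 250 bases before the RefSeq start of the gene (GRCm38.p6, minus strand, 5′ to 3′), and capitals mark a match to an Nrf1 motif (GCGCATGCG) or to the ETS motif bound by GABP (CCGGAAG) on either strand. The windows lie at chr15:102671048-102671297 for Atp5g2, chr7:4753095-4753344 for Cox6b2, chr7:30626115-30626364 for Cox6b1 and chr17:83514334-83514583 for Cox7a2l.
Atp5g2: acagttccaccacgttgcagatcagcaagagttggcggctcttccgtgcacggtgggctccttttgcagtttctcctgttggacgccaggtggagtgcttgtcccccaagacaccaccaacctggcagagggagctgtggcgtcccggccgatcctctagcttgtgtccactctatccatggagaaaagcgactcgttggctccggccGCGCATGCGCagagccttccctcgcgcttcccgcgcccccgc
Cox6b2: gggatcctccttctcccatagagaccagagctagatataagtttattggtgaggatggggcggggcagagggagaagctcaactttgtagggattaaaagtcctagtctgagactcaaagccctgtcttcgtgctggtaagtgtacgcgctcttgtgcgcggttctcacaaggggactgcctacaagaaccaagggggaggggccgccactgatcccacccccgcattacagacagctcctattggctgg
Cox6b1: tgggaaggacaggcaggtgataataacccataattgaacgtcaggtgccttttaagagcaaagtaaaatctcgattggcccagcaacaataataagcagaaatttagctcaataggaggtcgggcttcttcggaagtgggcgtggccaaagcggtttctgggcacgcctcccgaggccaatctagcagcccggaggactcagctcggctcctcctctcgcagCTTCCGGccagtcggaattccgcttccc
Cox7a2l: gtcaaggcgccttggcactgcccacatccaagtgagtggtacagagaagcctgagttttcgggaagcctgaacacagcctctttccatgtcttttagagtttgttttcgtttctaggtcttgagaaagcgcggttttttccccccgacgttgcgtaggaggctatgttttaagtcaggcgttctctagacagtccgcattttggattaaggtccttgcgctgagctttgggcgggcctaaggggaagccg
The Atp5g2 window held the Nrf1 motif on both strands at overlapping positions, and that of Cox6b1 the ETS motif on the reverse strand. The windows of Cox6b2 and Cox7a2l held neither of these, nor the other letters searched.

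Known motifs of mitochondrial gene control occurred at the following shares, given as a description with no test. RefSeq windows of 300 bases (250 before and 50 after the start) were found for 67 of the 80 genes and for 27025 genes in all. The Nrf1 motif lay in 9 of the 67 (13.4%), against 1.95% of all genes and 2.61% of protein-coding genes. The ETS motif lay in 16 (23.9%), against 9.93% and 12.9%. A Yy1 motif (AAGATGGCG) lay in 6 (8.96%), against 1.64% and 2.14%, and an estrogen-related receptor motif (CAAGGTCA) in 3 (4.48%), against 1.76% and 1.56%. The E-box CACGTG, bound by Myc among others, was about as frequent in these promoters (6 of 67, 8.96%) as in protein-coding genes (8.91%). By complex, the Nrf1 motif lay in 1 of 31 complex I promoters, 2 of 5 of complex III, 1 of 11 of complex IV, 3 of 15 of complex V and 2 of 5 of the assembly factors. Both strands were searched, and a match describes letters and not binding.

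The arrays fell into 2 classes that bear on which groups can be compared. On the 6 arrays of iPSC with MEFs and of both fractions, the 18S ribosomal RNA control read 11.35 to 13.22. The gap between 3′ and 5′ probe sets of Actb was 1.08 and 1.12 with MEFs and 0.05 to 0.21 in the fractions. That gap thus moves with the group in both comparisons of a fraction with iPSC with MEFs, and its part in them was not tested. On the 4 arrays of iPSC in 2i and of day 32 the 18S control read 5.25 to 6.55 with a gap of 2.70 to 3.88. Samples were amplified with either of 2 kits, and the kit of each is not stated. Kit and RNA quality therefore cannot be told apart as sources of the classes. Values are deposited log2 units throughout. Fractions were therefore compared with each other and with iPSC with MEFs, and day 32 with iPSC in 2i. The comparison of the iPSC groups crosses the classes, so class and culture cannot be told apart in it. Both fractions and the 2i group were set against the same iPSC with MEFs arrays, so those 3 comparisons share their reference. The median of all genes per array was 7.70 to 7.76 in the low 18S class, 6.48 and 6.53 in iPSC with MEFs and 6.04 to 6.10 in the fractions.

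As deposited, the median level of every complex was lower on all 4 arrays of the fractions than on both iPSC with MEFs arrays. The median of all genes was lower there too. These orders depend on the scaling. After quantile normalization the Sox2-positive fraction differed from iPSC with MEFs by medians of 0.08 (complex I), 0.43 (III), 0.19 (IV) and 0.11 (V). The Sox2-negative fraction differed by -0.05, 0.05, -0.08 and -0.06 in that order. Levels of the low 18S class are given beside these without a comparison. For complex I, the median over its genes was 10.18 and 10.21 on the Sox2-positive arrays and 10.10 and 10.13 on the Sox2-negative ones. It was 11 and 10.96 in iPSC with MEFs, 10.76 and 10.80 in iPSC in 2i, and 10.49 and 10.89 at day 32. Complex III read 9.09 and 8.99 in the Sox2-positive and 9.10 and 9.31 in the Sox2-negative fraction, 9.49 and 10.08 in iPSC with MEFs, 10.39 and 10.55 in 2i, and 10.23 and 10.24 at day 32. Complex IV read 12.17 and 12.33 in iPSC with MEFs and 11.18 and 11.11 in the Sox2-negative fraction, with 11.56 and 11.53 in the Sox2-positive fraction, 11.71 and 11.86 in 2i, and 11.36 and 11.74 at day 32. Complex V read 11.66 and 11.61 in iPSC with MEFs, 11.60 and 11.55 in 2i, 11.01 and 11.38 at day 32, 11.15 and 10.90 in the Sox2-positive and 10.53 and 10.99 in the Sox2-negative fraction, so the fractions overlapped. The median absolute difference between replicates was 0.12 to 0.30 over these genes and 0.25 to 0.41 over all genes. Fewer cells of a kind and less RNA per cell cannot be told apart in such bulk samples.

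**Figure D1:**
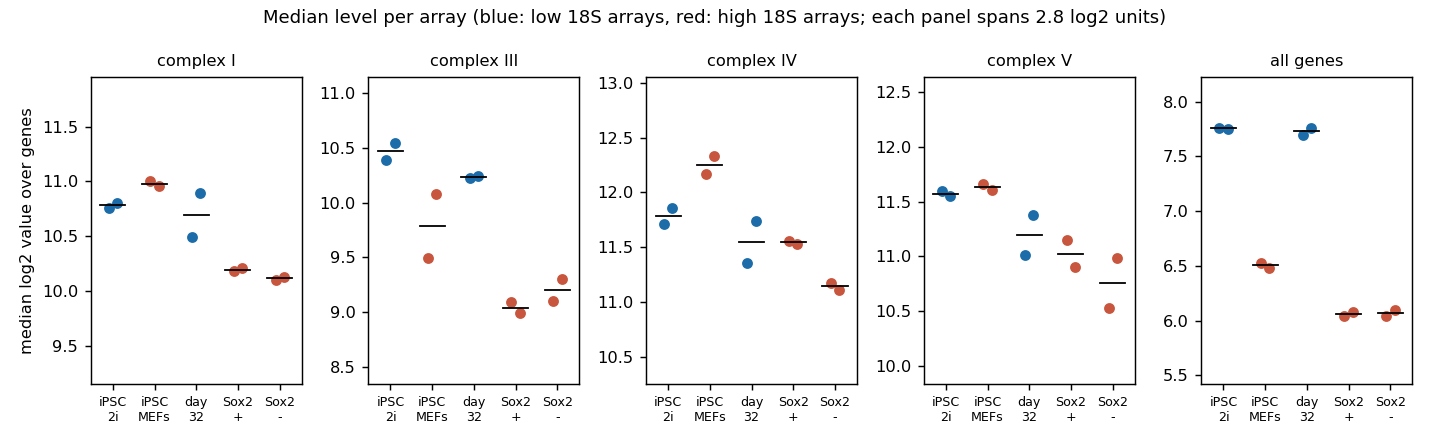
Median log2 value over the genes of each complex, and over all 8593 genes past the filter, on each array (points) with the mean of the 2 arrays of a group (line), in blue for the low and red for the high 18S class. Every panel spans the same range, and complex I sat at 10.10 to 10.21 in the fractions and at 10.96 and 11 in iPSC with MEFs.

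Between the Sox2-positive and Sox2-negative fractions of day 32 a single respiratory chain gene passed the test. Of 75 genes, 0 were called higher and 1 lower by limma at an adjusted p under 0.05 (1.33%), where 12.5% of all genes were called, 6.87% higher and 5.62% lower. Without adjustment 10 of the 75 had p under 0.05, and 28.9% of all genes. The median difference over the 70 subunits was 0.07, beside -0.02 for all genes. By complex it was 0.01 for complex I, -0.08 for III, 0.28 for IV and 0.07 for V, and 0.35 for the assembly factors.

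The gene called was Ndufs5, an accessory subunit of complex I, which was lower in the Sox2-positive fraction. Its complex had no common direction, with 16 of 33 genes below 0, 17 above and a median of 0.01. Ndufs5 read 6.43 and 6.82 in the Sox2-positive fraction and 7.45 and 7.69 in the Sox2-negative fraction. The arrays did not overlap, which held for 31 of the 75 genes and was not counted over all genes. The difference of -0.95 (SE 0.27) had an adjusted p of 0.0498 by limma. The call was lost on leaving out any of the 4 arrays (adjusted p = 0.0801 to 0.157), with array weights (0.139) and with the compared arrays alone (0.197). Ndufs5 was far higher on the low 18S arrays, at 9.41 and 9.25 in iPSC in 2i and 8.77 and 9.21 at day 32, and read 6.82 and 6.91 in iPSC with MEFs.

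The widest gap between the fractions, that of Cox7a1, did not pass the test. Cox7a1, the heart and skeletal muscle isoform of a complex IV subunit, read 4.73 and 7.20 in the Sox2-positive and 3.12 and 3.22 in the Sox2-negative fraction. The difference of 2.795 (SE 0.88) had an adjusted p of 0.069 by limma, and it was 4.03 without Sox2-positive replicate a (adjusted p = 0.0231) and 1.56 without replicate b (0.326). Cox7c, a small complex IV subunit, read 5.72 and 7.05 against 5.22 and 4.83 (difference 1.36, adjusted p = 0.0686). The fractions also differed in markers of other cells. The summed level of 6 fat cell markers was 11.43 to 12.26 (log2) in the Sox2-negative and 6.35 to 6.67 in the Sox2-positive fraction, with Adipoq, Ucp1 and Cidea not above 4 on either Sox2-negative array. None of 10 muscle markers exceeded 4 on both arrays of either fraction. The part of these cells in the values was not tested.

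**Figure D2:**
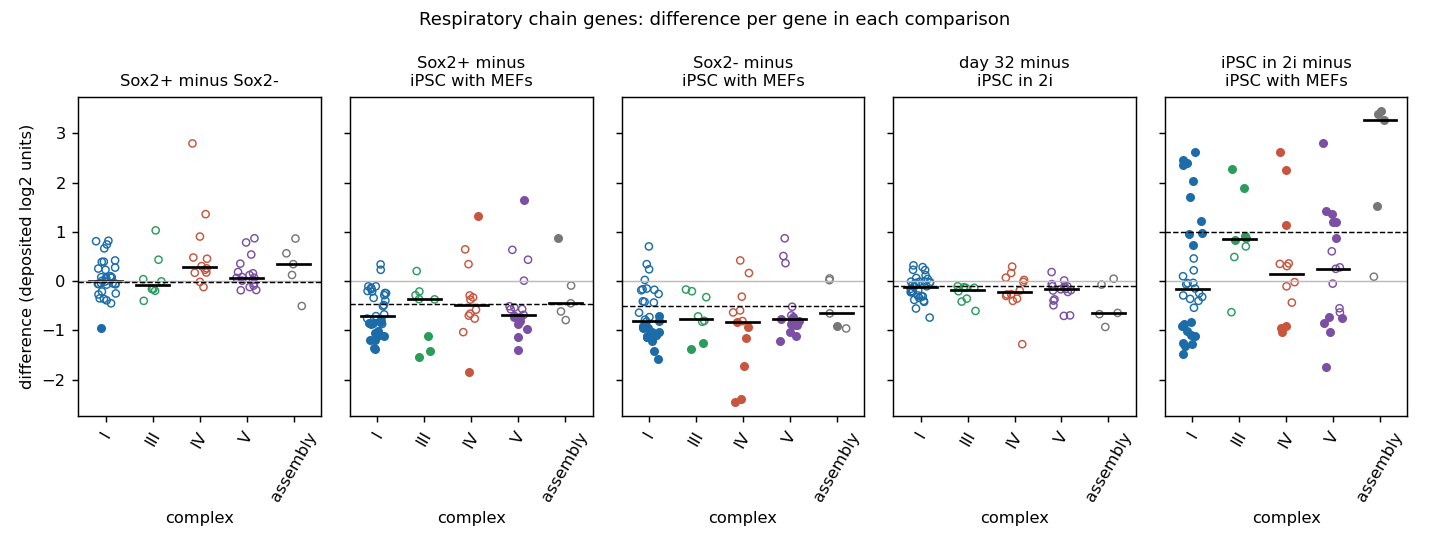
Difference in log2 units of every gene past the filter, by complex, in the 5 comparisons. Filled points are genes called by limma, bars are medians of a complex and the dashed line is the median of all 8593 genes. Between the fractions 1 of 75 is filled and between day 32 and 2i 0, while 27, 37 and 46 are filled in the comparisons with iPSC with MEFs.

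Compared with iPSC with MEFs, 24 of 75 genes were lower and 3 higher in the Sox2-positive fraction as deposited. That is 36% called, where 35.9% of all genes were called, 29.8% lower and 6.13% higher, so the share was that of the background. The median over the subunits was -0.62, beside -0.455 for all genes. Complex I had 13 of 33 called lower (median -0.71), complex III 3 of 8 (-0.37), complex IV 1 of 12 (-0.48) and complex V 7 of 17 (-0.69), and 0 of the 5 assembly factors (-0.45). Among roles, 3 of 6 genes of the catalytic core of complex I were called lower. So were 3 of 4 of the peripheral stalk of ATP synthase and 2 of 5 of its F1 part.

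Falls were named by their p within each complex, and each was called as deposited. Ndufv1, which binds NADH in complex I, read 9.72 and 9.89 in the Sox2-positive fraction and 11.37 and 10.96 in iPSC with MEFs, a difference of -1.36 (SE 0.26, limma adjusted p = 0.00505). The accessory subunit Ndufc2 fell by 1.38 (adjusted p = 0.00392) and Ndufab1, the mitochondrial acyl carrier protein, by 1.20 (0.00446). In complex III the Rieske iron-sulfur protein Uqcrfs1 read 7.94 and 7.74 against 9.27 and 9.25, a fall of 1.42 (SE 0.23, limma adjusted p = 0.00264). The core protein Uqcrc2 fell by 1.53 (adjusted p = 0.00368) and the hinge protein Uqcrh by 1.12 (0.0126). In complex V the small membrane subunit Atp5md read 9.85 and 9.99 against 11.31 and 11.34, a fall of 1.41 (limma adjusted p = 0.00251). Atp5k, subunit e, fell by 1.13 (adjusted p = 0.00919) and Atp5j, a stalk subunit, by 0.98 (0.0119). The arrays of the groups did not overlap for any of these genes, which held for 59 of the 75 and was not counted over all genes. Uqcrh lost its call without replicate b of iPSC with MEFs (limma adjusted p = 0.0856) or of the Sox2-positive fraction (0.0555), Atp5k without either MEF array (0.0535 and 0.0544) and Atp5j without replicate a of either group (0.0828 and 0.0523). Ndufc2 lost it by the mean of its probe sets (-0.44, adjusted p = 0.183).

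How many genes were lower depended on the scaling of the arrays. After quantile normalization 8 were called higher and 1 lower, where 8.59% and 9.05% of all genes were, and after median centring 7 and 7, where 11.7% and 13.6% were. The falls of Ndufv1, Ndufc2, Ndufab1, Uqcrfs1, Uqcrc2, Uqcrh, Atp5md, Atp5k and Atp5j kept their sign but not their call under quantile normalization. No gene called as deposited was called in the opposite direction under either other scaling. Leaving out the first or the other array of iPSC with MEFs (a or b) left 8 and 11 genes called, and leaving out Sox2-positive replicate a left 13.

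**Figure D3:**
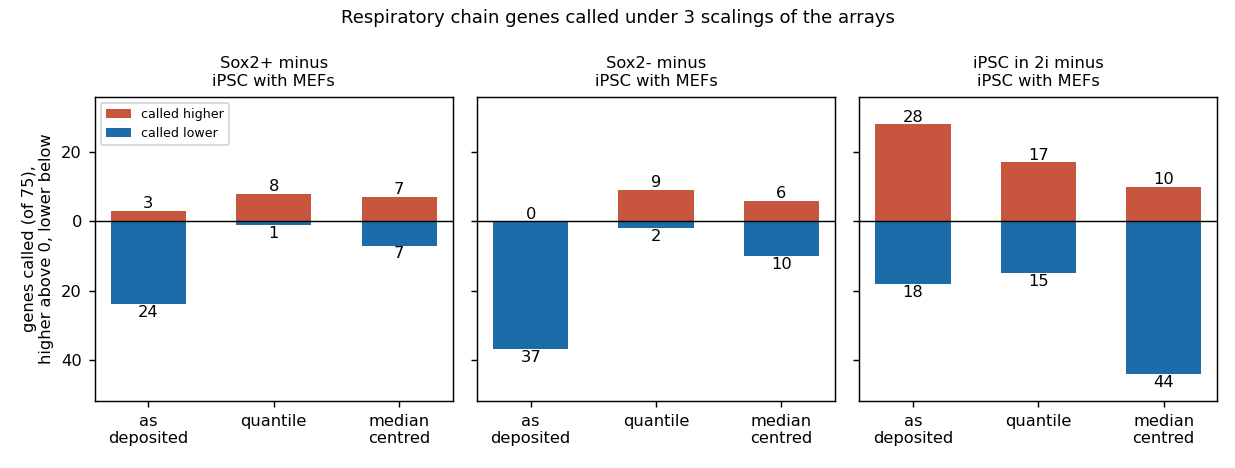
Number of the 75 genes called higher (red, upwards) and lower (blue, downwards) in the 3 comparisons with iPSC with MEFs, with the arrays as deposited, quantile normalized and median centred. In the fractions the split moved from 3 and 24 to 8 and 1 (Sox2-positive), and from 0 and 37 to 9 and 2 (Sox2-negative), on quantile normalization.

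Cox7a2l was the member whose fall in the Sox2-positive fraction was called under every scaling. This supercomplex factor, counted in complex IV by its symbol, read 10.29 and 10.54 in the Sox2-positive fraction and 12.20 and 12.31 in iPSC with MEFs. The difference of -1.84 (SE 0.24) had a limma adjusted p of 0.0015, was 3.58-fold, and was -0.89 after quantile normalization (0.032) and -1.395 after centring (0.00625). It was called on leaving out each of the 4 arrays (adjusted p = 0.00418 to 0.0187). Of its other probe sets, the first gave -1.81 (adjusted p = 0.00178 over 14012 probe sets) and the second -0.73 (0.0532).

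Atp5g2, Cox6b2 and Ndufaf7 rose in the Sox2-positive fraction. As deposited, the medians of complexes V and IV and of the assembly factors were below 0 (-0.69, -0.48 and -0.45). After quantile normalization those of complexes V and IV were 0.11 and 0.19. Atp5g2 and Cox6b2 thus opposed their complexes only on the deposited scale or after centring (-0.24 and -0.03). The median of the assembly factors was -0.11 after quantile normalization and -0.005 after centring, so Ndufaf7 opposed its sign under all 3 scalings. Atp5g2 read 8.75 and 8.11 against 6.16 and 7.39 in iPSC with MEFs, a rise of 1.66 (SE 0.42, 3.15-fold, limma adjusted p = 0.0157). Its other probe set, at means of 3.055 and 2.8, differed by 0.26 (adjusted p = 0.479 over probe sets). Cox6b2 read 8.18 and 8.74 against 7.04 and 7.23, a rise of 1.33 (SE 0.36, 2.51-fold, limma adjusted p = 0.0203). Ndufaf7, a methyltransferase needed early in complex I assembly, read 5.10 and 4.62 against 3.89 and 4.06, a rise of 0.89 (SE 0.29, limma adjusted p = 0.0401) close to the filter value. None of the 3 overlapped between groups, as held for 59 of the 75 genes (not counted over all genes). Each was called higher under all 3 scalings. Atp5g2 lost its call without replicate a of iPSC with MEFs (limma adjusted p = 0.111) or of the Sox2-positive fraction (0.0915). Cox6b2 lost it without either MEF array (0.109 and 0.0736) or Sox2-positive replicate b (0.0944), and Ndufaf7 without either MEF array (0.173 and 0.106) or Sox2-positive replicate a (0.191) and with the compared arrays alone (0.0614). Against the Sox2-negative fraction, Atp5g2, Cox6b2 and Ndufaf7 were 0.79, 0.91 and 0.87 higher in the Sox2-positive fraction, and none was called (limma adjusted p = 0.256, 0.133 and 0.0824).

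In the Sox2-negative fraction 37 of 75 genes were lower than in iPSC with MEFs and 0 were higher as deposited. The share of 49.3% stood beside 47.5% of all genes, of which 35.6% were lower and 11.9% higher. The median over the subunits was -0.80, beside -0.505 for all genes. Called lower were 17 of 33 genes of complex I (median -0.81), 2 of 8 of complex III (-0.76), 6 of 12 of complex IV (-0.82), 11 of 17 of complex V (-0.77) and 1 of 5 assembly factors (-0.66). By role they were 3 of 6 core genes of complex I, 4 of 5 genes of the F1 part and 3 of 4 of the peripheral stalk. Leaving out either array of iPSC with MEFs left 19 genes called each time. Quantile normalization gave 9 higher and 2 lower, where 16.4% and 17.4% of all genes were called, and centring 6 and 10, where 19% and 21.9% were.

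Cox7c and Cox7a2l were lower in the Sox2-negative fraction under all 3 scalings. Cox7c read 5.22 and 4.83 against 7.36 and 7.48 in iPSC with MEFs, a fall of 2.40 (SE 0.43, limma adjusted p = 0.00224), called on leaving out each array (adjusted p at most 0.0197). Its other probe set gave -2.21 (adjusted p = 0.00183 over probe sets). Cox7a2l read 10.71 and 10.36 against 12.20 and 12.31, a fall of 1.72 (SE 0.24, limma adjusted p = 7.96e-04), and its other probe sets gave -1.64 (0.00117) and -0.78 (0.0328). Against the Sox2-positive fraction neither Cox7a2l (-0.12, adjusted p = 0.787) nor Cox7c was called.

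Other falls in the Sox2-negative fraction were lost under quantile normalization. Ndufb5, a membrane arm subunit of complex I, read 10.62 and 10.13 against 11.98 and 11.93, a fall of 1.58 (SE 0.26, limma adjusted p = 0.00157) that became -0.67 (0.0617) on quantile normalization. Ndufv1 fell by 1.42 (adjusted p = 0.00247) and Ndufab1 by 1.21 (0.00251). Uqcrfs1 read 8.07 and 7.93 against 9.27 and 9.25, a fall of 1.26 (limma adjusted p = 0.0023), and Uqcrc2 fell by 1.37 (0.00339). Atp5md fell by 1.22 (adjusted p = 0.00238), Atp5k by 1.04 (0.00845) and Atp5j by 0.86 (0.0141). Ndufaf5, an assembly factor, read 5.29 and 5.50 against 5.96 and 6.66 and fell by 0.92 (limma adjusted p = 0.0464). It lost its call without replicate b of iPSC with MEFs (adjusted p = 0.277) or either Sox2-negative array (0.146 and 0.0796), and Atp5j without replicate a of iPSC with MEFs (0.0896).

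Day 32 cells and iPSC in 2i did not differ by the test in any of the 75 genes. The count called by limma was 0 under each scaling. As deposited, 7.72% of all genes were called (5.21% higher, 2.5% lower), and 3 of the 75 had an unadjusted p under 0.05, against 24.9% of all genes. The median over the subunits was -0.16, beside -0.105 for all genes, and the medians were -0.12 for complex I, -0.17 for III, -0.23 for IV, -0.17 for V and -0.65 for the assembly factors. Of the 70 subunits 57 were below 0, and of all 8593 genes 4911. The subunit median was 0.01 without day 32 replicate a and -0.315 without replicate b. Differences ran from -1.28 (Cox7a1) to 0.32 (Ndufs8, a core subunit of complex I). The replicates of Cox7a1 lay far apart, at 5.68 and 8.26 at day 32 against 8.41 and 8.09 in 2i (SE 0.88, adjusted p = 0.41). The summed level of fat cell markers was 11.01 to 11.93 at day 32 and 7.69 to 8.07 in 2i. Most of the day 32 sum was Fabp4, at 11.68 and 10.68 against 1.71 and 3.92 in 2i. Cidea alone went the other way, at 2.22 and 3.19 against 4.91 and 4.04. The part of fat cells in these values was not tested. A missed threshold with 2 arrays a group does not show that levels were equal.

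Between the iPSC groups, which lie in different array classes, the respiratory genes moved in both directions. Of 75 genes 28 were higher and 18 lower in 2i (61.3% called), where 61.1% of all genes were called, 52.9% higher and 8.16% lower. The median over the subunits was 0.04, beside 1.005 for all genes. Complex I had 10 higher and 10 lower (median -0.15), complex III 5 higher and 0 lower (0.86), complex IV 3 and 3 (0.14), complex V 6 and 5 (0.25) and the assembly factors 4 and 0 (3.28). Quantile normalization gave 17 higher and 15 lower, where 17.3% and 17.4% of all genes were called, and centring 10 and 44, where 15.2% and 29.4% were. Calls in the same direction under all 3 scalings were 10 higher and 14 lower, which was not counted over all genes. Without replicate a of iPSC with MEFs fewer of these genes, and fewer of all genes, were called. The subunit median was then 0.02, beside 1.025 for all genes.

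Assembly factors and members of complexes I and III rose in 2i relative to iPSC with MEFs. Ndufaf7 read 7.47 and 7.38 against 3.89 and 4.06, a rise of 3.45 (SE 0.29, 10.9-fold, limma adjusted p = 4.98e-05), and the assembly factors Ndufaf1 and Ndufaf3 rose by 3.39 (1.08e-04) and 3.28 (3.57e-04). The core subunit Ndufs3 read 10.56 and 10.84 against 8.46 and 8.24 and rose by 2.35 (limma adjusted p = 1.06e-04), as did the accessory subunits Ndufb3 by 2.63 (8.92e-05) and Ndufs5 by 2.47 (1.37e-04). In complex III the quinone-side subunit Uqcrq rose by 2.27 (adjusted p = 0.00166), the core protein Uqcrc1 by 1.90 (0.0013) and Uqcrfs1 by 0.91 (0.00711). The catalytic subunit of ATP synthase, Atp5b, rose by 1.43 (adjusted p = 0.00216) and Atp5l, subunit g, by 1.20 (0.00316). After median centring the rises of Uqcrq, Uqcrc1 and Atp5b were not called, and Uqcrfs1 and Atp5l turned to -0.34 and -0.05. The other rises shrank but were called: after quantile normalization and centring they were 2.01 and 2.20 for Ndufaf7, 1.94 and 2.14 for Ndufaf1, 1.81 and 2.03 for Ndufaf3, 1.76 and 1.10 for Ndufs3, 1.86 and 1.38 for Ndufb3 and 1.39 and 1.22 for Ndufs5. By the mean of its probe sets Uqcrq was 0.54 higher (adjusted p = 0.158).

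Lower in 2i were Atp5md and a group of accessory subunits. Atp5md read 9.56 and 9.61 against 11.31 and 11.34, a fall of 1.74 (SE 0.22, limma adjusted p = 2.48e-04) that was -2.99 after centring. Ndufb7 fell by 1.49 (limma adjusted p = 9.2e-04), Ndufb9 by 1.33 (0.00193) and Ndufab1 by 1.11 (0.00244). Atp5d, the δ subunit of the F1 part, fell by 1.03 (0.0049), Cox5b by 0.95 (0.0172) and the stalk subunit Atp5h by 0.85 (0.0113). Cox7a2l fell by 1.03 (0.00539), with its other probe sets at -1.39 (0.00132 over probe sets) and 1.495 (9.32e-04). Probe sets of the same gene often disagreed here. Of 42 genes with at least 2 probe sets past the filter, all probe sets had the same sign in 15. For 13 of the 20 whose used probe set was called, another was called the opposite way. Such disagreement was not counted over all genes, so it may not be particular to these. Ndufb7 gave -1.49 by the probe set used and 2.375 by the other (adjusted p = 1.96e-04 over probe sets), Atp5d -1.03 and 2.24 (3.83e-04). In the other 4 comparisons 27 to 33 of the 42 genes had the same sign throughout. For the fractions against iPSC with MEFs, the used probe set was called for 17 (Sox2-positive) and 23 (Sox2-negative) of the 42. None of these had an opposite call. Between the fractions and between day 32 and 2i it was called for 0, so no opposite call could occur. Atp5h lost its call without either 2i array (limma adjusted p = 0.0548 and 0.0511) or replicate b of iPSC with MEFs (0.0629), and Cox5b without replicate a of either group (0.0983 and 0.116) and after quantile normalization (0.0521). By the mean of their probe sets the calls of Ndufb7 (0.126), Ndufb9 (0.655), Ndufab1 (0.461), Atp5d (0.0544), Atp5h (0.884), Cox5b (0.804) and Cox7a2l (0.238) were lost, with the sign turned for Ndufb7, Atp5d and Atp5h.

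**Figure D4:**
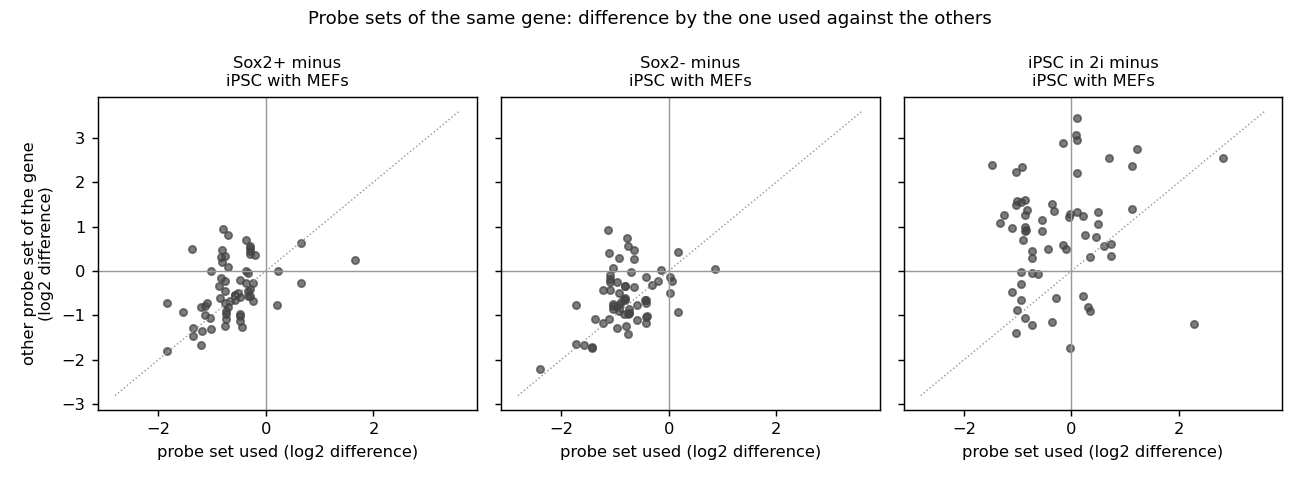
Difference in log2 units by the probe set used for a gene (horizontal) against each other probe set of that gene past the filter (vertical), with the line of equality dotted. In the comparison of the iPSC groups many points lie in the upper left, lower by the probe set used and higher by another, which is seen for 13 genes called both ways.

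Isoforms of complex IV made in particular tissues were mostly at the floor of the arrays. Cox4i2, of lung and of low oxygen, averaged 3.14 over the 10 arrays, the muscle isoforms Cox6a2 and Cox8b 3.65 and 2.998, and the testis isoform Cox8c 2.86, all under the filter. Their ubiquitous counterparts were well above it on every array. Cox4i1 read 12.33 and 12.47 in 2i, 11.73 and 12.35 in iPSC with MEFs, 11.96 and 12.24 at day 32, 11.38 and 11.30 in the Sox2-positive and 10.92 and 10.85 in the Sox2-negative fraction. Cox4i1 was 1.16 lower in the Sox2-negative fraction than in iPSC with MEFs (limma adjusted p = 0.00805), a call lost without replicate b of iPSC with MEFs (0.0669) and after quantile normalization (-0.30, 0.381) or centring (-0.72, 0.0645), and 0.70 lower in the Sox2-positive fraction without passing (0.073). Cox6a1 was 0.91 lower in 2i than with MEFs (adjusted p = 0.0141) and was called in no other comparison, and the call was lost without either 2i array (0.0658 and 0.0553), without replicate b of iPSC with MEFs (0.0941), after quantile normalization (0.0588) and by the mean of its probe sets (-0.11, 0.739). Cox8a was 1.13 higher in 2i (limma adjusted p = 0.00587; 0.0509 without replicate a of iPSC with MEFs), which became 0.34 (0.373) after quantile normalization and -0.12 after centring. It was 0.65 (0.0898) and 0.17 (0.632) higher in the Sox2-positive and Sox2-negative fractions than with MEFs.

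Of the Cox6b pair, Cox6b2 was called in 2 comparisons and Cox6b1 in none as deposited, but after centring Cox6b1 was called lower in 2i than with MEFs (-1.355, limma adjusted p = 0.00154). The ubiquitous Cox6b1 stayed between 11.73 and 12.18 on all 10 arrays (limma adjusted p = 0.285 or higher in every comparison). Cox6b2 read 9.26 and 9.53 in 2i and 9.45 and 9.93 at day 32, against 7.04 and 7.23 in iPSC with MEFs, 8.18 and 8.74 in the Sox2-positive and 7.10 and 8.01 in the Sox2-negative fraction. Its order thus followed the array class first, and within the high 18S class both Sox2-positive arrays lay above the other 4. The difference of 2.26 between 2i and iPSC with MEFs (SE 0.36, 4.79-fold, limma adjusted p = 7.6e-04) was called under each scaling, and shrank to 1.215 after quantile normalization (0.0259) and 1.01 after centring (0.0392). Sox2-negative cells differed from iPSC with MEFs by 0.42 with overlapping arrays (adjusted p = 0.355).

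Of the Cox7a family, Cox7a1 varied most and Cox7a2 least. Cox7a1 read 8.41 and 8.09 in 2i, 5.84 and 5.40 in iPSC with MEFs, and 3.12 and 3.22 in the Sox2-negative fraction, while the replicates of day 32 and of the Sox2-positive fraction were 5.68 and 8.26, and 4.73 and 7.20. It was 2.63 higher in 2i than with MEFs (SE 0.88, limma adjusted p = 0.0271) and at least 3.07-fold lower in the Sox2-negative fraction than with MEFs (-2.45, adjusted p = 0.0448). Both calls were lost on leaving out any array (0.0717 to 0.122, and 0.112 to 0.175) and under quantile normalization (0.303 and 0.0758). The ubiquitous Cox7a2 stayed between 11.41 and 12.66 and was called as deposited only in the Sox2-negative fraction against iPSC with MEFs (-0.84, limma adjusted p = 0.0364), a call lost under quantile normalization (-0.07, 0.875) and without either MEF array (0.175 and 0.0744) or Sox2-negative replicate a (0.153). By the mean of its probe sets it was also called in the Sox2-positive fraction against iPSC with MEFs (-0.67, 0.0452), and after centring in 2i (-1.685, 0.00119). Cox7a2l was steady in the low 18S class, at 11.22 to 11.30 on its 4 arrays, and differed there by 0.07 between day 32 and 2i (adjusted p = 0.897).

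The 3 genes for the identical c ring protein of ATP synthase differed in where they were called, and differences between the genes were not tested. Atp5g1 and Atp5g2 were called higher in 2i than with MEFs, Atp5g2 also in the Sox2-positive fraction, and Atp5g3 lower in the Sox2-negative fraction, each against iPSC with MEFs. Atp5g2 was high in 2i (9.68 and 9.49) and at day 32 (9.37 and 9.68), lowest in iPSC with MEFs (6.16 and 7.39), and read 8.75 and 8.11 in the Sox2-positive and 7.38 and 7.91 in the Sox2-negative fraction. Its difference of 2.81 between the iPSC groups (SE 0.42, 7.01-fold, limma adjusted p = 5.53e-04) was called under each scaling, and shrank to 1.75 after quantile normalization (0.0105) and 1.56 after centring (0.0157). Its other probe set gave 2.54 (8.01e-05 over probe sets). Sox2-negative arrays overlapped with those of iPSC with MEFs (difference 0.87, adjusted p = 0.115 as deposited, 0.0286 after quantile normalization and 0.0358 after centring). Atp5g1 read 11.06 and 11.22 in 2i, 9.24 and 10.65 in iPSC with MEFs, 10.31 and 10.56 at day 32, 10.17 and 9.74 in the Sox2-positive and 8.78 and 9.39 in the Sox2-negative fraction. Its difference between the iPSC groups was the only one called (1.20, limma adjusted p = 0.0397), which was lost without either 2i array (0.099 and 0.136) or replicate a of iPSC with MEFs (0.31), and became 0.89 (0.124) after quantile normalization and -0.06 after centring. Atp5g3 stayed between 11.60 and 12.81 and was 0.77 lower in the Sox2-negative fraction than with MEFs (adjusted p = 0.0423), a call lost on leaving out any array (0.0747 to 0.202) and after quantile normalization (-0.06, 0.881). Ndufa4, named for complex I and counted there by its symbol, has since been placed in complex IV. It was 0.98 higher in 2i than with MEFs (limma adjusted p = 0.00506), but -0.27 after centring, and was called in no other comparison.

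**Figure D5:**
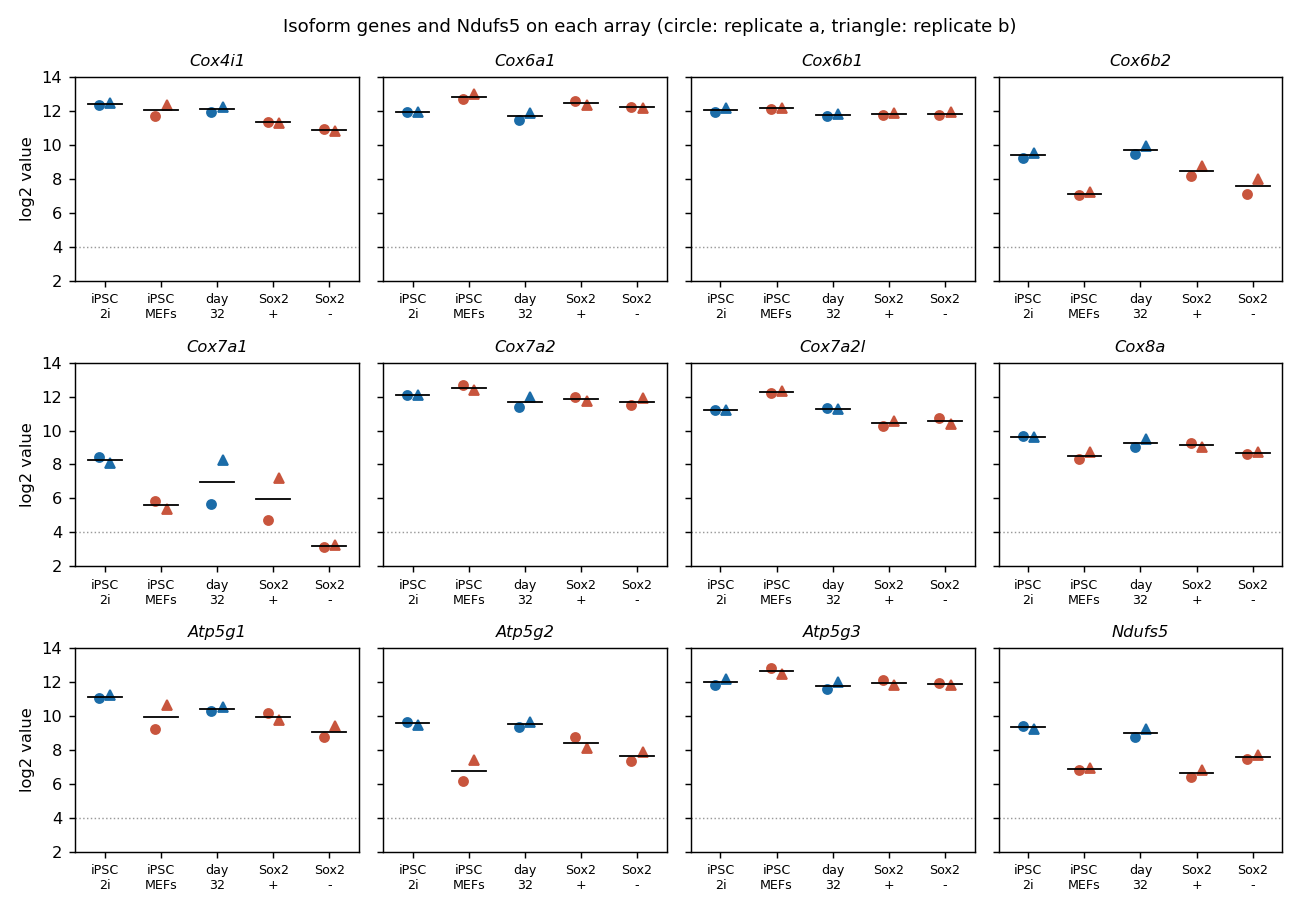
Log2 value of 11 isoform genes and of Ndufs5 on each array (circle: replicate a, triangle: replicate b, line: mean), in blue for the low and red for the high 18S class. The dotted line is the filter value of 4. Cox6b1 stays between 11.73 and 12.18, while Cox7a1 spans 3.12 to 8.41.

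Most regulators of mitochondrial genes were called lower in both fractions than in iPSC with MEFs as deposited. Of 15 tested, 11 were called lower and 0 higher in the Sox2-positive fraction, and 10 lower and 1 higher in the Sox2-negative fraction, with medians of -1.13 and -1.53. Of all genes 29.8% and 35.6% were called lower there, with medians of -0.455 and -0.505. The transcription factor Yy1 fell by 2.15 (SE 0.25, limma adjusted p = 0.00114) in the Sox2-positive fraction, and Tfam, the packaging and transcription factor of mitochondrial DNA, by 1.85 (0.00271). In the Sox2-negative fraction the pluripotency and estrogen-related receptor Esrrb fell by 6.29 (limma adjusted p = 9.88e-05) and Tfam by 2.87 (2.62e-04). Yy1, Tfam and Nrf1 were called lower in both fractions under all 3 scalings, which left 3 called lower in the Sox2-positive fraction and 6 in the Sox2-negative fraction. Nrf1 and Gabpa, named here because their motifs were searched, read 4.995 and 6.505 on average in the Sox2-positive fraction, 4.24 and 5.76 in the Sox2-negative and 6.86 and 7.62 in iPSC with MEFs. Between the fractions only Esrrb of this list was called, 5.57 higher in the Sox2-positive fraction (adjusted p = 4.75e-04), and it is also a pluripotency marker. Between the iPSC groups 10 were higher in 2i and 0 lower, where 52.9% of all genes were higher, led by Gabpa (2.65, 2.4e-04) and Tfb2m (2.53, 7.25e-04), with 2 called under all 3 scalings.

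Counts for genes of neighbouring steps of oxidative metabolism stand beside 29.8% lower and 6.13% higher of all genes in the Sox2-positive and 35.6% lower and 11.9% higher in the Sox2-negative fraction, as deposited. Of 10 genes of complex II and of electron carriers, limma called 0 between the fractions (0 with an unadjusted p under 0.05) and 3 were lower in each fraction than in iPSC with MEFs, near the share of all genes. Sdha, the flavoprotein of complex II, fell by 1.71 in the Sox2-positive (limma adjusted p = 0.0017) and by 1.80 in the Sox2-negative fraction (6.56e-04), Cyc1, the cytochrome c1 of complex III, by 1.17 (0.012) and 1.68 (0.00156). Under all 3 scalings Sdha in the Sox2-negative fraction was the only one of these called. Of 18 genes of the tricarboxylic acid cycle 9 and 11 were lower in the Sox2-positive and Sox2-negative fractions and 0 higher, such as Dlst of the oxoglutarate dehydrogenase complex (-1.90, 0.00153) in the former and the pyruvate dehydrogenase subunit Pdhb (-1.91, 6.3e-04) in the latter. The same call held under all 3 scalings for 1 and 3 of them. Between the fractions Suclg1, a subunit of succinyl-CoA ligase, was 0.97 higher in the Sox2-positive fraction (adjusted p = 0.0413) and Dlst 0.94 lower (0.0427), both under all 3 scalings. Of 7 carrier genes 5 and 3 were lower, led by the channel Vdac3 (-1.25, 0.00527 and -1.61, 0.00101), and 0 and 2 of these were called under all 3 scalings. Coenzyme Q synthesis was split, with 1 of 9 higher and 3 lower in the Sox2-positive fraction, led by Coq7 (-1.98, 0.00318) and Coq9 (-1.20, 0.00763), and 2 higher and 3 lower in the Sox2-negative, led by Coq9 (-1.32, 0.00301) and Coq6 (-1.43, 0.00576). Under all 3 scalings 1 lower call remained in the former, Coq7, and 2 higher and 1 lower in the latter. Between the fractions 0 carrier and 0 coenzyme Q genes were called by limma, with 1 of each at an unadjusted p under 0.05.

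Among assembly genes of complexes III, IV and V, 3 were called between the fractions. Of 16 tested, 3 were lower in the Sox2-positive than in the Sox2-negative fraction and 0 higher, where 5.62% of all genes were lower and 6.87% higher. Cox19, a copper chaperone of complex IV, was 1.79 lower (5.96 ± 0.66 against 7.75 ± 0.99, SD, n = 2, limma adjusted p = 0.0432). Tmem70, an assembly factor of ATP synthase, was 1.30 lower (7.64 ± 0.54 against 8.94 ± 0.17, 0.0458), and Sco2, another copper chaperone, 0.94 lower (0.046). Cox19 was called under all 3 scalings, and Tmem70 and Sco2 were not. Compared with iPSC with MEFs, Sco2 and Tmem70 were 1.98 (limma adjusted p = 6.08e-04) and 2.21 (0.00148) higher in the Sox2-negative fraction under all 3 scalings. Lower there were 2 others, Lrpprc by 2.02 (0.00364) and Surf1 by 0.995 (0.0236), beside 35.6% of all genes lower and 11.9% higher. In the Sox2-positive fraction 1 was higher (Sco2, 1.04, 0.015) and 6 lower, where 6.13% and 29.8% of all genes were, of which under all 3 scalings Sco2 remained. Tmem70 was also the single gene of this list called at day 32, 1.92 higher than in 2i (adjusted p = 0.0163). Of 6 complex I assembly genes outside the Ndufaf family, limma called 0 between the fractions (0 with an unadjusted p under 0.05), and 2 and 4 were lower than with MEFs, led by Ecsit (-2.05, 0.00143 and -1.88, 8.09e-04) called under all 3 scalings.

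Genes of the response to low oxygen went in both directions. Of 12 tested, only the mitophagy gene Bnip3 was called between the fractions, higher in the Sox2-positive (1.81, limma adjusted p = 0.0471). Of all genes 6.87% were higher and 5.62% lower there. Compared with iPSC with MEFs, 2 of the 12 were higher and 1 lower in the Sox2-positive fraction, where 6.13% and 29.8% of all genes were. They were led by the collagen hydroxylase P4ha1 (1.75, limma adjusted p = 0.00288) and the pyruvate dehydrogenase kinase Pdk1 (-1.63, 0.0253), which also counts in the tricarboxylic acid cycle list. In the Sox2-negative fraction 2 of the 12 were higher and 5 lower, where 11.9% and 35.6% of all genes were. They were led by the glucose transporter Slc2a1 (-1.44, limma adjusted p = 0.00412) and the oxygen sensor Egln3 (-1.53, 0.00601). Under all 3 scalings 2 higher calls remained in the Sox2-positive fraction, and 2 higher and 2 lower in the Sox2-negative, and the call of Bnip3 was lost. P4ha2 was 1.37 higher at day 32 than in 2i (limma adjusted p = 0.0295) and alone in this list, a call lost after quantile normalization (1.09, 0.0749). Of all genes 5.21% were higher at day 32 as deposited. Of the lists, complex II and carriers, other complex I assembly, coenzyme Q synthesis, the carriers, the regulators and the tricarboxylic acid cycle had 0 genes called by limma between day 32 and 2i, with 0, 1, 1, 1, 2 and 1 at an unadjusted p under 0.05.

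Fibroblast markers differed between the groups compared. Of 10 measured, 0 exceeded 4 on both arrays of the Sox2-positive fraction, 2 did in the Sox2-negative fraction, 2 in each iPSC group and 5 at day 32. Their summed level was 5.74 to 6.0 (log2) in the Sox2-positive and 7.63 to 7.70 in the Sox2-negative fraction, 8.15 to 8.28 in iPSC with MEFs, 7.88 to 8.0 in 2i and 9.33 at day 32. Col6a1, Postn, Pdgfra, Lum and Dcn did not exceed 4 on either array of iPSC with MEFs. The part of fibroblast RNA in the differences above was not tested.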

How the data were processed

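Values are log2 expression values of 22690 probe sets, which the authors deposited after GCRMA with the affy package, per the submitters' processing notes, with versions and joint normalization not given in the sources used here. Per the labels' protocols, Trizol RNA was amplified by a NuGEN kit, either Ovation V2 or the Pico WTA V2 system, and the kit of each sample is not stated. Probe sets with a single symbol numbered 20380. The 691 with several and 1555 with none were left out, among them 8 that include a respiratory gene, and 64 controls only described the arrays. All 80 genes were found by Entrez ID in RefSeq, and 0 symbols changed.

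Limma 3.58.1 in R 4.3.3 fitted a mean per group over all 10 arrays with empirical Bayes moderation, and p-values were adjusted (Benjamini-Hochberg) over 8593 genes of a comparison, or over 14012 probe sets where a single probe set is given. A gene was called at an adjusted p under 0.05. Calls under all 3 scalings were counted for the respiratory genes and the gene lists only, not over all genes. The code was tested on simulated data. Figures were drawn with matplotlib 3.10.9.

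The genes, the lists of markers, regulators, carriers, assembly, coenzyme Q, tricarboxylic acid and low oxygen genes, and the tests were chosen with earlier results of these data known. Named are all measured isoform genes in every comparison, per complex up to 3 genes called in each direction in order of p, genes called against the median of their complex, and up to 2 called genes of a list. Cox7c between the fractions, Fabp4 and Cidea as single fat cell markers, and genes named for a motif or in counts of 5 or fewer, were added after their values were seen. A fold is given as at least so much where the lower group lay under 4 on every array.

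Replicate letters recur in the groups, but the labels do not say that they mark a shared origin, and correlations of deviations ran from -0.06 to 0.33, so the fit does not pair arrays. Alternatives were other filters (none, or 6), the mean of the probe sets, quantile normalization, median centring, array weights, a replicate block, the compared arrays alone, and leaving out each array.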

Additional observations from a re-analysis of the deposited data

How the results depend on the processing

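Between the Sox2-positive and Sox2-negative fractions, the count of called genes (1) was 2 with the mean of the probe sets, 2 with a replicate block, 0 with array weights, 0 with the compared arrays alone and 0 to 2 on leaving out an array. The subunit median was 0.10 with the mean of the probe sets and 0.0375 to 0.15 on omissions. For the Sox2-positive fraction against iPSC with MEFs, the count (27) was 9 after quantile normalization, 14 after centring, 17 with the compared arrays alone and 8 to 18 on omissions, and the median was -0.48 with the mean of the probe sets, 0.12 after quantile normalization, -0.18 after centring and -0.66 to -0.56 on omissions. For the Sox2-negative fraction these were 11, 16 and 19 to 29 (37 called), and -0.72, -0.0562, -0.37 and -0.79 to -0.73. Between day 32 and 2i the count was 0 throughout. Between the iPSC groups the count (46) was 29 to 40 on omissions, and the median 0.52 with the mean of the probe sets, -1.21 after centring and 0.02 to 0.21 on omissions.

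Between the iPSC groups the sign of the difference turned for Atp5d (0.61), Atp5h (0.0375) and Ndufb7 (0.45) with the mean of the probe sets. Centring turned Atp5g1 (-0.055), Atp5l (-0.05), Cox4i1 (-0.89; uncalled as deposited), Cox8a (-0.12), Ndufa4 (-0.27) and Uqcrfs1 (-0.34). The cause was not tested. Of 1188 pairs of a named gene and a setting, 1049 kept their side of the threshold (37 of these turned sign without a call in either fit), 114 lost the call, 16 gained it and 9 are the turned signs named above. The replicate block gave Cox7a1 between the fractions an adjusted p of 0.0483 and Ndufaf7 in the Sox2-positive fraction against iPSC with MEFs 0.0506 by limma, and the labels do not state that the letters pair the arrays. With 2 arrays a group, small differences cannot be resolved, and genes under a log2 value of 4 carry little signal. Outside the comparison of day 32 with 2i, fewer of all genes were called on each omission than with every array.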
